A study of Mus musculus with 6 samples.

Results

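Proteasome genes were taken as all genes whose symbol in the platform annotation begins with Psma, Psmb, Psmc, Psmd or Psme. This prefix gave 41 of the 16675 annotated genes on the array, covered by 49 of the 21020 probes that carry a symbol. Where a gene had more than 1 probe (7 genes), the probe with the highest mean log2 intensity over the arrays stood for it. The members comprised 7 genes of the alpha ring and 6 standard genes of the beta ring, which form the barrel-shaped core particle. They also held 3 immunoproteasome beta genes, 6 ATPases and 3 other genes of the base of the regulatory particle, 8 genes of its lid, 3 of its assembly chaperones and 4 alternative activators. Psmc3ip shares the prefix but encodes a factor of meiotic recombination and not a proteasome subunit. Psma5, Psmb3 and Psmb11 were not analysed here.

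The animals of all groups were ob/ob mice (B6.V-Lepob/J), a strain without functional leptin in any tissue that becomes obese and insulin resistant. After 4 h without food they were given MCSE, an aqueous seed extract of Momordica charantia (bitter melon), or PBS by mouth, and 15 min later glucose at 1 g/kg into the peritoneum. Muscle, adipose tissue and liver were collected 4 h after the glucose. Cy5-labelled RNA of each tissue and treatment was measured on 1 array, 6 arrays in all. Levels are log2 normalized intensities, and the values of a label are given for PBS first and MCSE second. The sources used here do not give the animals' age or sex, the muscle taken or any pooling of animals.

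The proteasome degrades proteins that carry ubiquitin chains. The regulatory particle binds and unfolds them with its ring of ATPases, and the core particle cuts them at catalytic sites inside its beta rings. Cells exposed to interferon swap the catalytic subunits encoded by Psmb5, Psmb6 and Psmb7 for those of Psmb8, Psmb9 and Psmb10, which favour peptides that fit MHC class I molecules. In muscle this pathway, fed by ligases such as the one encoded by Fbxo32, removes contractile proteins during fasting and wasting. When proteasome activity falls short, the transcription factor encoded by Nfe2l1 raises the subunit genes together.

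The 6 arrays did not separate cleanly by tissue label, which bears on every comparison. Of 11 fast-twitch muscle genes, 10 reached the probe median in muscle (Tnni2 did not), and the summed intensity of the list was 521483 to 579848 on the muscle arrays against 7409 to 23696 on the other 4. The arrays labelled liver carried hepatocyte genes (summed intensity 74825 to 93103 over 7 genes) together with adipocyte genes (195257 to 233730 over 7 genes) and kidney genes (109385 to 174755 over 8 genes). The muscle arrays carried adipocyte genes as well, at a sum of 87401 to 103307. Single bright genes weigh heavily in such sums, namely Fabp4 in muscle (16.14 and 15.66) and Alb (15.79 and 15.36) and Kap (16.07 and 16.05) under the liver label. By median log2 level, the adipocyte list stood at 12.75 and 12.89 in muscle and 14.59 and 14.97 under the liver label. Under the liver label the hepatocyte list stood at 12.29 and 11.87 and the kidney list at 12.16 and 13.68. The MCSE adipose array correlated with the MCSE liver array at a Pearson r of 0.982 over all probes, and proteasome genes differed between these arrays by a median of 0.146 on the log2 scale. The PBS adipose array correlated with the others at 0.307 to 0.517 only, and its 7 adipocyte genes summed to 5485. For these reasons "liver" and "adipose" name the label of an array, and differences between the adipose arrays were not read as effects of MCSE.

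**Figure D1:**
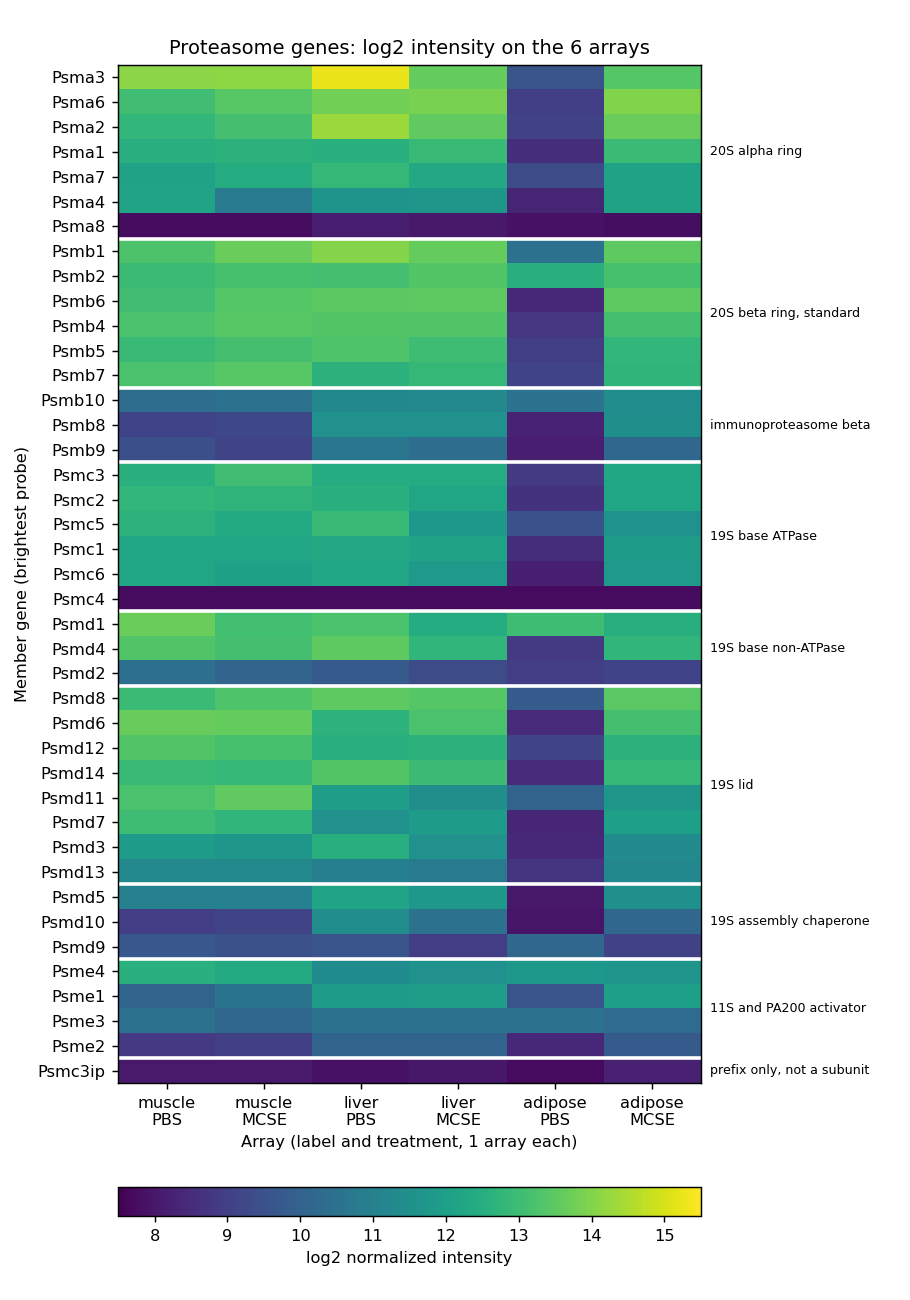
Log2 normalized intensity of the 41 genes (rows, grouped by part of the proteasome) on the 6 arrays (columns, 1 array per label and treatment). The PBS adipose column is dark for most genes, with a median of 8.85, while Psma8, Psmc4 and Psmc3ip are dark on all arrays.

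On 5 of the 6 arrays the proteasome genes lay near the top of the intensity range. Their median level was 12.58 and 12.45 in muscle, 12.46 and 11.96 under the liver label, and 12.02 for MCSE adipose. The medians of these 5 arrays stood at percentiles 92.0 to 95 of all probes. The median of all probes was 8.95. On these 5 arrays 31 to 35 of the 41 genes stood in the upper quartile. There were 3 members below the median of all probes on all arrays. Psma8, which encodes an alpha subunit of germ cells, lay between 7.75 and 8.17, and Psmc3ip between 7.74 and 8.24. Psmc4, one of the ATPases that every regulatory particle needs, was at the floor of 7.74 on all 6 arrays, at a percentile of 3.4 or less, on a single probe. The other 5 ATPases ranged from 11.57 to 13.06 outside the PBS adipose array.

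The PBS adipose array broke this pattern. Its proteasome median was 8.85, and 23 of the 41 genes lay below the median of all probes. Of 38 proteasome genes that reached the probe median on at least 1 array, 26 were at least 2-fold below each of the other 5 arrays (68.4%), against 19.6% of all genes on that rule. These shares were not matched for brightness. The proteasome genes lay near the top of the intensity range on the other 5 arrays, which leaves more room for a fall. Those 26 included all 6 alpha genes, 5 of 6 standard beta genes, all 5 ATPases and all 8 lid genes. None of the 3 immunoproteasome genes and none of the 4 activators was among them. Several of these were dim in muscle too, which leaves the rule less room. Psmb8 lay at 8.31 on the PBS adipose array, against 9.12 in PBS muscle and 11.49 on the MCSE adipose array. The dimmer probe of Psme1, at 8.26 against 10.22 or more on the other arrays, met the rule. For the 26 genes, the gap to the lowest other array ranged from 1.41 to 4.65 on the log2 scale. Psmb6, a standard catalytic subunit, lay at 8.39 on the PBS adipose array and at 13.04 to 13.50 elsewhere.

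A few proteasome genes kept their level on the PBS adipose array. Psmd1, a large scaffold subunit of the base, lay at 13.02 there, inside its range of 12.46 to 13.68 on the other arrays. Psmb2, a non-catalytic beta subunit, lay at 12.57 against 12.94 to 13.36. Psme4, which encodes the PA200 activator of the nucleus, lay at 11.78 and Psme3, the nuclear PA28 gamma activator, at 10.56. Probes of 1 gene did not always share this behaviour. The brightest Psmb10 probe lay at 10.55 on this array and its other probe at 8.06, and for Psmb8 the brightest probe lay at 8.31 and the other at 10.68. The contractile, adipocyte and other marker genes of this array also departed from its label, and their part in the low proteasome signal was not tested.

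**Figure D2:**
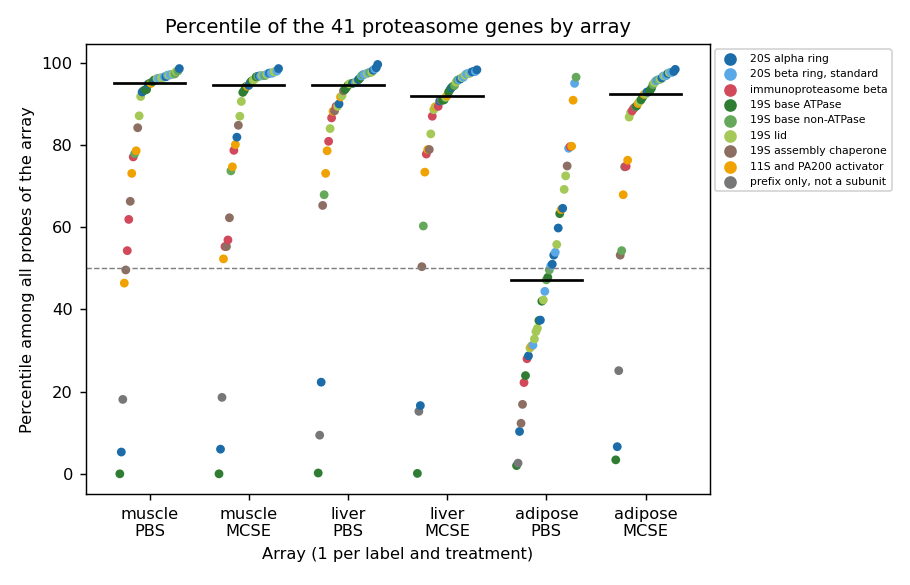
Percentile of each of the 41 proteasome genes among all probes of an array (points, coloured by part of the proteasome; bar, median; dashed line, the 50th percentile). The median is 92.0 or higher on 5 arrays and 47.2 on the PBS adipose array.

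With MCSE, proteasome genes in muscle differed little from PBS, and core and regulatory particle genes leaned to opposite sides of 0. Differences are log2 MCSE minus PBS. Of the 38 genes that reached the probe median on at least 1 of the muscle arrays, 0 were at least 2-fold higher and 1 was at least 2-fold lower, against 3.90% and 1.88% of the 10711 genes measured there. At 1.5-fold the counts were 0 and 2, against 9.49% and 7.91%. The median over the 38 was 0.05, against -0.05 over all measured genes. With 1 array per treatment no test was possible. As a gauge of disagreement between probes, the differences given by the 2 brightest probes of the same gene scattered with an SD per probe of 0.517. Both probes are read on the same arrays, so error that they share is not in this value.

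Psma4, an alpha subunit of the core, was the gene past 2-fold in muscle. It stood at 12.17 and 10.75 in muscle, 11.63 and 11.74 under the liver label and 8.32 and 12.11 under the adipose label. The MCSE muscle value was thus the lowest outside the PBS adipose array. The difference of -1.42 rested on 1 probe, and the other 5 measured alpha genes lay between 0.05 and 0.37.

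Of the 12 measured core genes, 11 lay above 0 in muscle, with a median of 0.23. All 6 standard beta genes did so, within the narrow range of 0.18 to 0.38. Psmb1, a non-catalytic subunit, stood at 13.28 and 13.66 in muscle, 14.03 and 13.61 under the liver label and 10.51 and 13.51 under the adipose label. Psmb5, which carries the chymotrypsin-like activity, stood at 12.91 and 13.13, 13.31 and 13.02, and 8.97 and 12.81 in the same order. Psmb6, with the caspase-like activity, stood at 13.04 and 13.39, 13.49 and 13.50, and 8.39 and 13.50. These levels put both catalytic subunits high on every array but PBS adipose. Psmb7, with the trypsin-like activity, stood at 13.22 and 13.43, 12.63 and 12.82, and 9.10 and 12.74. All 6 muscle differences of the standard beta genes are smaller than the SD per probe. For comparison, 44.7% of all measured genes lay above 0.

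Of the 16 measured base and lid genes, 13 lay below 0 in muscle (81.2%, against 55.3% of all measured genes), with a median of -0.11. Psmd1 had the largest difference below 0 (-0.59). It stood at 13.68 and 13.09 in muscle, 13.23 and 12.46 under the liver label and 13.02 and 12.50 under the adipose label. Psmc5, Psmd2 and Psmd4, the last a receptor for ubiquitin chains, lay at -0.27, -0.30 and -0.19. Psmc3 (0.48), Psmd11 (0.36) and Psmd8 (0.36) lay above 0. Psmc3, another ATPase, stood at 12.58 and 13.06 in muscle, 12.46 and 12.42 under the liver label and 8.87 and 12.30 under the adipose label, and its muscle difference was just short of the SD per probe. Psmd8, a lid subunit, stood at 12.95 and 13.31, 13.51 and 13.39, and 9.83 and 13.45 in that order. Psmd13, also of the lid, stood at 11.27 on both muscle arrays, at 10.94 and 10.81 under the liver label and at 8.69 and 11.24 under the adipose label.

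Interferon-responsive members did not move together in muscle. Psmb8 stood at 9.12 with PBS and 9.22 with MCSE, Psmb9 at 9.45 and 9.15, and Psmb10 at 10.35 and 10.48. Psme1 and Psme2 encode the PA28 alpha and beta subunits, which form a cap that opens the core without ubiquitin. Psme1 stood at 10.08 and 10.59 (0.51, and 0.73 on its other probe) and Psme2 at 8.82 and 9.03. Psme3 lay at -0.29 and Psme4 at -0.18.

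**Figure D3:**
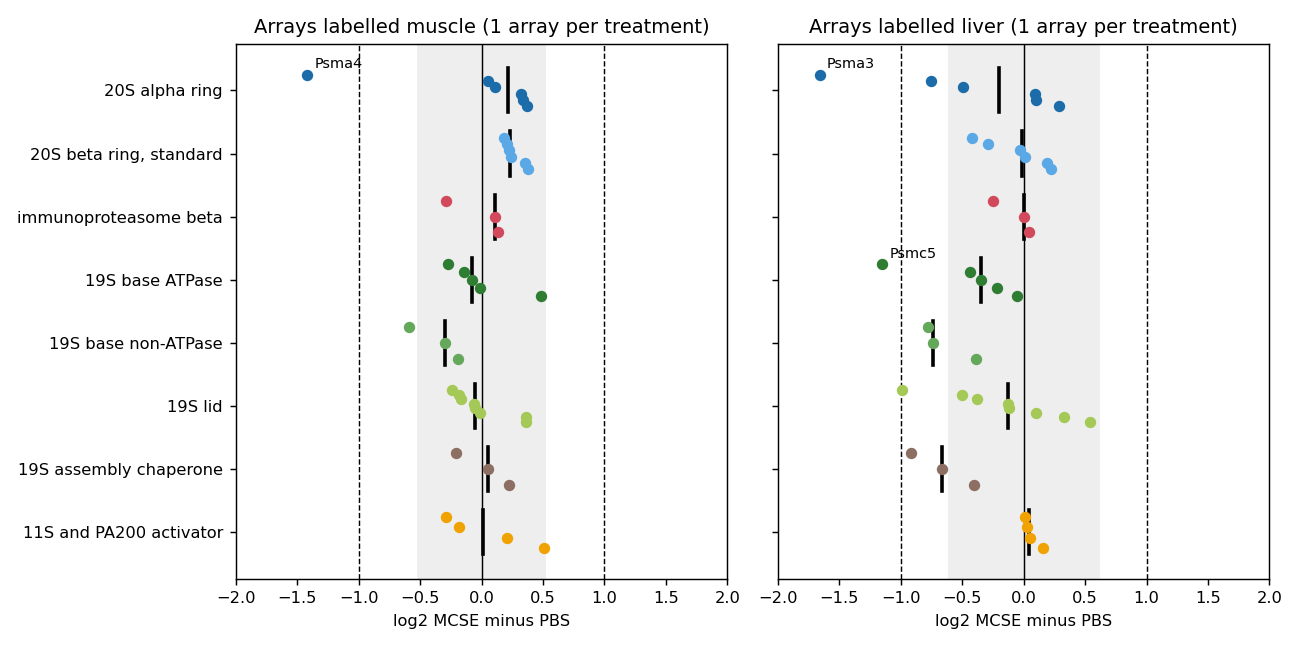
Log2 MCSE minus PBS for the 38 measured proteasome genes on the muscle pair (left) and the liver-labelled pair (right). Points are genes, bars class medians, the grey band 1 SD per probe either side of 0 and the dashed lines 2-fold; Psma4 is past 2-fold on the left, Psma3 and Psmc5 on the right.

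On the arrays labelled liver most base and lid genes again lay below 0, while the core was split. Of 38 measured proteasome genes, 0 were at least 2-fold higher and 2 at least 2-fold lower, against 8.27% and 6.01% of 11342 measured genes. At 1.5-fold the counts were 0 and 8 of 38, against 20.1% and 18.5%. The median was -0.18, against -0.02 over all measured genes, and the SD per probe was 0.611. Hepatocyte genes had a median difference of 0 over 7 genes and kidney genes of 1.39 over 8, with 6 at least 2-fold higher. Whether this shift in kidney transcripts had a part in the proteasome values was not tested.

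Psma3, an alpha subunit, had the largest difference. It stood at 15.28 and 13.62 under the liver label, 14.10 and 14.15 in muscle, and 9.58 and 13.39 under the adipose label. The PBS liver array was the highest of the 6. Its 2 other probes gave -0.62 and -0.96 where the brightest gave -1.66. Psmc5, an ATPase of the base, stood at 12.93 and 11.78 under the liver label (-1.15), 12.67 and 12.39 in muscle, and 9.52 and 11.57 under the adipose label. Psmd3, a lid subunit, lay just short of 2-fold at -0.99, with 12.55 and 11.56.

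Of the 16 base and lid genes, 13 lay below 0 on the liver pair (81.2%, against 50.9% of all measured genes), with a median of -0.37. All 5 measured ATPases and all 3 other base genes did so. Psmd1 lay at -0.78, and Psmd4, at 13.52 and 12.78, lay at -0.74. With Psmc5 and Psmd3, they were the only base and lid genes further from 0 than the SD per probe of 0.611. Psmd2, the other large scaffold of the base, stood at 9.76 and 9.37 under the liver label, 10.41 and 10.12 in muscle, and 8.94 and 9.11 under the adipose label. In the lid, Psmd6 (0.54), Psmd7 (0.33) and Psmd12 (0.10) lay above 0, while Psmd13 lay at -0.13 and Psmd14, the deubiquitinase that strips the chains, at -0.38. The 3 assembly chaperones were all below 0, with Psmd10 at -0.92, Psmd9 at -0.66 and Psmd5 at -0.40. Psmd5 stood at 12.18 and 11.78 under the liver label, 10.97 and 11.02 in muscle, and 8.06 and 11.53 under the adipose label. Psmd9 stood at 9.62 and 8.96, 9.67 and 9.47, and 10.20 and 9.07 in that order, and its dimmer probe gave 0.44 on the liver pair, the opposite sign.

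The core had a median of -0.01 on the liver pair, with 6 of 12 genes above 0. Psmb5 lay at -0.29, Psmb6 at 0.01 and Psmb7 at 0.19. The 3 immunoproteasome genes lay between -0.25 and 0.04 and the 4 activators between 0.01 and 0.16. Psmb8 was at 11.56 on both arrays, and its other probe gave -0.42.

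The muscle and liver pairs share no array, so their signs could be set side by side. Of the 16 base and lid genes, 10 lay below 0 on both pairs (62.5%) and 0 above 0 on both. Of the 12 core genes, 0 lay below 0 on both and 5 above 0 on both (41.7%). Among 9578 genes measured in both, 34.5% lay below 0 on both pairs and 26.7% above 0 on both. The 10 base and lid genes were Psmc1, Psmc2, Psmc5, Psmc6, Psmd1, Psmd2, Psmd3, Psmd4, Psmd13 and Psmd14. In muscle all of these but Psmd1 lay within 1 SD per probe (0.517) of 0. Psmc1 and Psmd13 lay at -0.01, Psmd14 at -0.06 and Psmc2 at -0.08 there, where the median over all measured genes was -0.05. The core genes above 0 on both pairs also lay within the SD per probe of each pair. On each pair 13 of the 16 base and lid genes lay below 0. Of the 12 core genes, 11 lay above 0 in muscle and 6 on the liver pair. The overlaps of both classes are the lowest that these counts allow. They therefore do not show that the 2 pairs went the same way gene by gene. These counts describe 4 arrays and are no test.

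Related genes on the lists drawn up for this pathway gave the following. Nfe2l1 stood at 12.46 and 13.29 in muscle (0.83), 12.12 and 12.52 under the liver label (0.39), and 9.25 and 12.50 under the adipose label. Stat3, at 12.33 and 11.27 in muscle, 11.42 and 10.84 under the liver label and 10.70 and 10.56 under the adipose label, was past 2-fold there (-1.07), the only 1 of 7 measured genes of the transcription list. Pomp, whose product guides core assembly, stood at 11.63 and 12.22 in muscle, 12.32 and 12.41 under the liver label, and 8.69 and 12.37 under the adipose label. None of the 10 measured assembly and associated genes was past 2-fold on either pair. Ubqln2, a shuttle for ubiquitylated proteins, stood at 11.72 and 10.63 in muscle (-1.09), 12.19 and 11.66 under the liver label, and 8.08 and 11.76 under the adipose label. Rad23b, another shuttle, stood at 10.38 and 11.39 under the liver label (1.00), 11.67 and 12.35 in muscle, and 8.99 and 11.18 under the adipose label. Fbxo32, the atrogin ligase of muscle wasting, stood at 14.32 and 14.48 in muscle, 13.74 and 12.17 under the liver label (-1.57), and 15.46 and 12.57 under the adipose label. On the liver pair it was the only 1 of 5 measured ligases past 2-fold.

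Promoters were searched for the antioxidant response core TGACNNNGC, the element through which Nfe2l1 and its relatives act. Windows of 300 bases, from 250 before to 50 after the annotated start, came from RefSeq on GRCm38.p6, and 34 of the 41 members were matched by symbol. Both strands were searched. The letters occurred in 6 of the 34 members (17.6%), namely Psmb5, Psmb6, Psmc6, Psmd9, Psmd12 and Psme4, against 14.0% of all 27025 genes of the table, so the members' share was near that of other genes. The ETS core CCGGAA occurred in 17 of 34 members (50%) against 16.7% of all genes, and the CCAAT box CCAAT in 13 (38.2%) against 41.1%. The 4 promoters with the antioxidant response letters and the largest MCSE difference on either pair are shown 5′ to 3′ on the gene's strand, with the matching letters in capitals on whichever strand they fell. They are Psmd9 (chr5:123227940-123228239, plus strand), Psmc6 (chr14:45329574-45329873, plus strand), Psmb6 (chr11:70525107-70525406, plus strand) and Psmb5 (chr14:54617946-54618245, minus strand).
Psmd9: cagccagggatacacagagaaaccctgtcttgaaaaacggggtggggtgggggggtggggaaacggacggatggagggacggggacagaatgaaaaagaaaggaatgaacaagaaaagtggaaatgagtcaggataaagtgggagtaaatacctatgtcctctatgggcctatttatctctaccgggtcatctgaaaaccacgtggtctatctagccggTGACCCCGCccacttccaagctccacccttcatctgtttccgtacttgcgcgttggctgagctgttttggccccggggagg
Psmc6: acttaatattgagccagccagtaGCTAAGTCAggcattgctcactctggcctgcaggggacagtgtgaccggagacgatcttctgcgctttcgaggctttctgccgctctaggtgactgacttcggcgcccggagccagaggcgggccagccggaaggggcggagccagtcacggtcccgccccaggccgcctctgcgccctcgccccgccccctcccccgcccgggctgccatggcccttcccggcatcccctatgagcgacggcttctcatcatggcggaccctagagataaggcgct
Psmb6: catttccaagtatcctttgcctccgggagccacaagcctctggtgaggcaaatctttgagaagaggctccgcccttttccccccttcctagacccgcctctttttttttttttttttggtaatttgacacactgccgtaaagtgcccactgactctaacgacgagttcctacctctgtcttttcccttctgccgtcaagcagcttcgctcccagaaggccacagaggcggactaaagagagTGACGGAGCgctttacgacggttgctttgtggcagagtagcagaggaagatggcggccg
Psmb5: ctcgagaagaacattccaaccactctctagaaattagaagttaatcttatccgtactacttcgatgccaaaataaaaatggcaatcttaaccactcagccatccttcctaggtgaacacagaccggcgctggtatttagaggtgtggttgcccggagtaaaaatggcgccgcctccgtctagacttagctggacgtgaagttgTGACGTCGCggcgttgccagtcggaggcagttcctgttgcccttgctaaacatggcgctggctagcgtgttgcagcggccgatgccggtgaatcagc
In Psmb6 the match begins at base 242 of the window, 9 bases before the start, and in Psmb5 at base 204. These 2 subunits differed by 0.35 and 0.22 in muscle and by 0.01 and -0.29 on the liver pair, while Psmc6 lay at -0.14 and -0.44. A match of letters is a description and not a site of binding.

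Between tissue labels, the immunoproteasome genes Psmb8 and Psmb9 and the PA28 genes Psme1 and Psme2 were lower in muscle, and the lid genes Psmd11 and Psmd7 and the activator Psme4 were higher. The PBS and MCSE arrays of a label were used as its 2 samples, and muscle was compared with the liver label over 12475 genes with limma. Of 38 proteasome genes tested, 3 were higher in muscle (7.9%) and 5 lower (13.2%) at a Benjamini-Hochberg adjusted p under 0.05, against 9.93% and 15.4% of all genes tested. The share of proteasome genes called was thus close to that of other genes. At an unadjusted limma p under 0.05 there were 11 of the 38, against 5218 of all 12475 genes, a smaller share among the proteasome genes. In bulk tissue, fewer cells of a type and less RNA per cell cannot be told apart. Since 1 array of each label was from PBS and 1 from MCSE mice, the spread within a label includes whatever MCSE did, and the number of mice behind an array is not stated.

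Psmb8 had the largest difference of the members. It stood at 9.12 and 9.22 in muscle, at 11.56 on both liver arrays, and at 8.31 and 11.49 under the adipose label. Both muscle arrays were below both liver arrays, by -2.39 ± 0.27 on the log2 scale (SE, n = 2 per label, limma adjusted p = 0.00304). Its dimmer probe differed by -0.41 only, with 9.30 and 9.38 against 9.96 and 9.54. Psmb9, whose product replaces that of Psmb6, stood at 9.45 and 9.15 in muscle, 10.65 and 10.40 on the liver arrays, and 8.17 and 10.18 under the adipose label. It was lower in muscle by -1.23 ± 0.29 (SE, limma adjusted p = 0.0273). Psmb10, whose product replaces that of Psmb7, stood at 10.35 and 10.48 in muscle, 11.22 and 11.26 on the liver arrays, and 10.55 and 11.41 on the adipose arrays. Its difference of -0.83 ± 0.27 did not pass (limma adjusted p = 0.0678). For Psmb10 too, both muscle arrays lay below both liver arrays. Such a lack of overlap was common, with 37.5% of all genes tested below in this way and 33.1% above. Its dimmer probe, at 9.59 and 9.85 against 12.20 and 11.73, gave -2.24.

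The standard subunits that these 3 replace did not pass the test. Psmb5 differed by -0.15 ± 0.29 (SE, limma adjusted p = 0.72) and Psmb6 by -0.28 ± 0.29 (0.477). Both muscle arrays lay below both liver arrays for Psmb6 (13.04 and 13.39 against 13.49 and 13.50). Psmb7, with both muscle arrays above both liver arrays, differed by 0.60 ± 0.28 (0.155). None of the 12 core genes passed, with fitted differences between -0.98 and 0.60. The core gene with the largest of these was Psma2, at 12.79 and 13.13 in muscle and 14.31 and 13.56 on the liver arrays. Psma2 did pass, as lower in muscle, with treatment as a term of the fit. A p that misses the threshold does not show that 2 labels have the same level.

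The PA28 genes were lower in muscle as well. Psme1 stood at 10.08 and 10.59 in muscle, 11.90 and 11.96 on the liver arrays and 9.57 and 12.01 under the adipose label. The groups did not overlap, and the difference was -1.60 ± 0.31 (SE, limma adjusted p = 0.0144), with -1.23 on its other probe. Psme2 stood at 8.82 and 9.03 in muscle, 10.08 and 10.09 on the liver arrays, and 8.38 and 9.76 on the adipose arrays. It differed by -1.15 ± 0.28 (limma adjusted p = 0.0283), and its muscle values lay either side of the probe median. Psme3 did not pass (-0.16 ± 0.28, limma adjusted p = 0.693), with 10.18 to 10.56 on all 6 arrays. Psme4 went the other way, with 12.58 and 12.40 in muscle against 11.40 and 11.55, a difference of 1.01 ± 0.28 (limma adjusted p = 0.0416). Its dimmer probe, below the probe median on all arrays, gave 0.30.

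**Figure D4:**
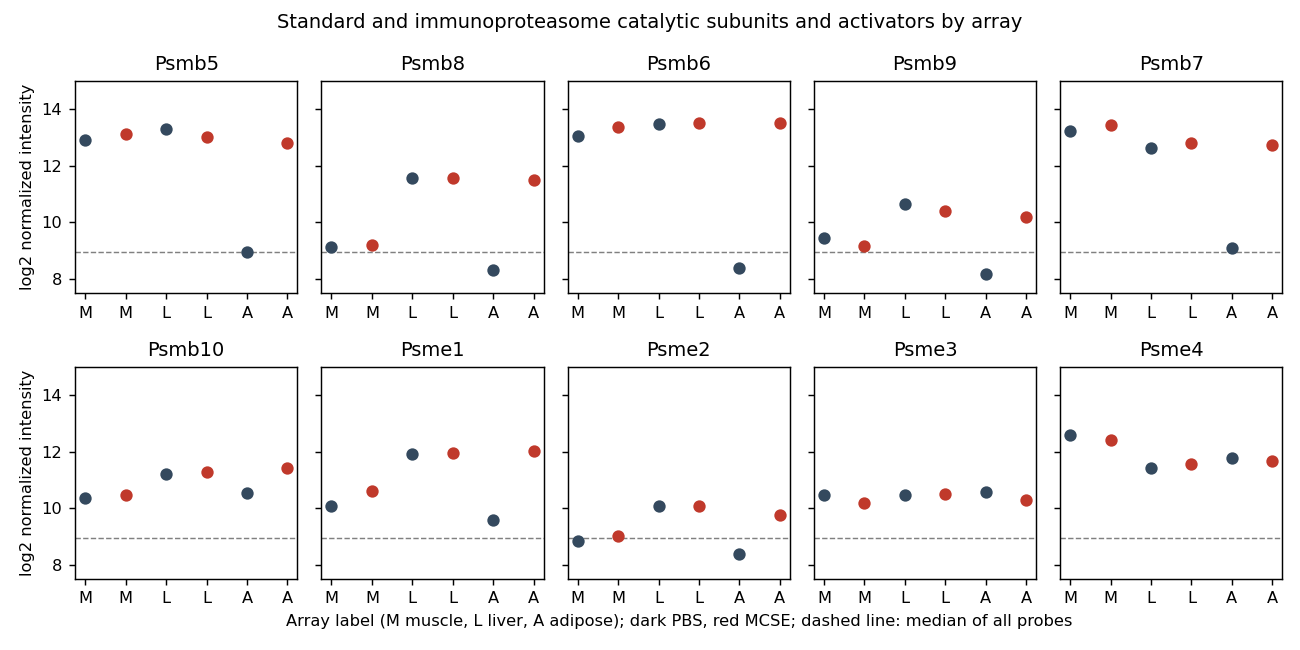
Log2 intensity of the standard catalytic subunits, the immunoproteasome subunits and the activators on each array (points; M, L and A are the muscle, liver and adipose labels, dark PBS and red MCSE; dashed line, median of all probes, 8.95). Psmb8, Psmb9, Psme1 and Psme2 are lower on the muscle arrays than on the liver arrays, whereas Psmb5, Psmb6 and Psme3 lie at similar heights on those 4 arrays.

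In the regulatory particle, 2 lid genes were higher in muscle and 1 chaperone was lower. Psmd11 stood at 13.19 and 13.55 in muscle, 11.96 and 11.45 on the liver arrays and 10.04 and 11.73 on the adipose arrays, a difference of 1.67 ± 0.32 between muscle and liver (SE, limma adjusted p = 0.0147). Its product is a lid scaffold. Psmd7 stood at 13.02 and 12.78 in muscle, 11.56 and 11.88 on the liver arrays and 8.37 and 12.02 on the adipose arrays, with a difference of 1.18 ± 0.29 (limma adjusted p = 0.0314). Its product is the partner of the Psmd14 deubiquitinase. Psmd10, the assembly chaperone known as gankyrin, stood at 8.94 and 9.15 in muscle, 11.41 and 10.49 on the liver arrays and 7.95 and 10.18 on the adipose arrays. It was lower in muscle by -1.91 ± 0.38 (limma adjusted p = 0.0161). Of the 16 base and lid genes tested, 8 had both muscle arrays above both liver arrays, with a median of 0.36, and 2 had them below. Over all genes tested these shares were 33.1% and 37.5%.

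**Figure D5:**
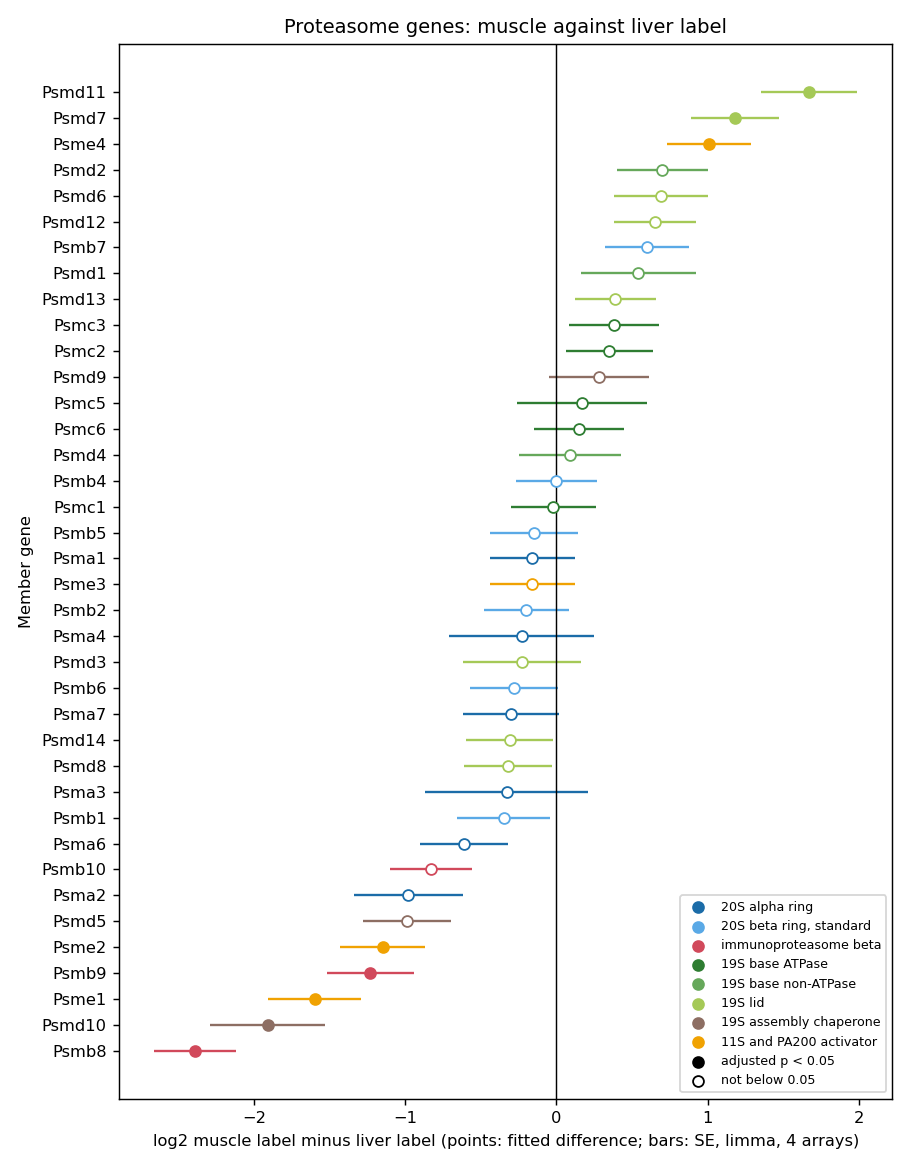
Fitted log2 difference of muscle minus liver label for the 38 proteasome genes tested (points; bars, SE from limma over 4 arrays; filled, adjusted p under 0.05). Filled points run from Psmb8 at -2.39 to Psmd11 at 1.67.

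Leaving out 1 of the 4 arrays leaves a single array in a label, and the spread then comes from the other label alone. Only the fitted differences are therefore read for those fits, and their counts of genes passing are no check. Psmb8 differed by -2.34 without the PBS muscle array and by -2.45 without the MCSE muscle array. Without the PBS liver array or without the MCSE liver array it differed by -2.39. Over all alternatives Psmb8 ranged from -2.45 to -1.40, Psmd10 from -2.37 to -1.45 and Psme1 from -1.86 to -1.35. Psmb9 ranged from -1.37 to -1.08 and Psme2 from -1.26 to -1.05. Psmd11 ranged from 1.42 to 1.92, Psmd7 from 1.01 to 1.34 and Psme4 from 0.65 to 1.10. With treatment as a term, which sets the arrays of 1 treatment against each other, all 8 passed together with Psma2 and Psmd5. These were 10 of 38 proteasome genes, against 38.3% of all genes tested. With the adipose arrays in the fit, so that the spread between them counted, 0 of 38 passed with limma, 0 had an unadjusted p under 0.05, and 47 of all 12475 genes passed (1067 at an unadjusted p under 0.05).

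Related genes of antigen presentation were set beside these subunits. Psmb8 and Psmb9 lie in the MHC region on either side of Tap1, and Psme1 and Psme2 are also close neighbours, with Emc9 between them in the RefSeq gene order. Of 14 tested genes of MHC class I presentation and interferon response, 3 were lower (21.4%) and 2 higher (14.3%) in muscle, near the 15.4% and 9.93% of all genes tested, with a median of -0.73 against -0.04. H2-D1, a class I heavy chain, was lower by -2.43 ± 0.39 (SE, limma adjusted p = 0.00834) and Tap2, a peptide transporter subunit, by -1.51 ± 0.28 (0.0129). Cd74, the invariant chain of class II, was the other lower gene, by -1.79 ± 0.45 (0.0327). B2m, the class I light chain, stood at 15.28 and 15.00 in muscle and 16.00 and 16.14 on the liver arrays (limma adjusted p = 0.0555), with 10.19 and 15.94 under the adipose label. Tap1 stood at 8.33 and 8.56 in muscle, 8.62 and 9.14 on the liver arrays, and 8.29 and 9.0 under the adipose label, around or below the probe median. Irf7 (1.22 ± 0.30) and Ifit3 (1.07 ± 0.29), both induced by type I interferon, were higher in muscle, with limma adjusted p of 0.0311 and 0.0414.

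Macrophage genes summed to 12186 and 14879 on the muscle arrays and to 55828 and 45684 on the liver arrays, and 4 of 8 were lower (50%) and 1 higher (12.5%) in muscle. Antigen-presenting cell genes summed to 12789 and 16754 against 42946 and 41186, with 3 of 5 tested lower (60%). Lymphocyte genes summed to 4942 and 5518 against 5917 and 4856, with 1 of 5 tested lower (20%) and 1 higher (20%), near the 15.4% and 9.93% of all genes. Lyzs, Ctss and H2-Aa weigh heavily in the liver sums. By median log2 level, the macrophage list stood at 10.56 and 10.68 in muscle and 11.41 and 11.88 on the liver arrays. The antigen-presenting list stood at 8.67 and 9.13 against 10.48 and 11.51. None of the markers of these 3 lists was at the floor on all arrays (0 of 8, 0 of 7 and 0 of 7). Below the probe median on all arrays were 2 of 7 antigen-presenting genes and 1 of 7 lymphocyte genes. The part of such cells in the immunoproteasome difference was not tested. On the liver pair 3 of 14 measured presentation and interferon genes were past 2-fold, all higher with MCSE, against 8.27% of all measured genes. Irf1 stood at 10.55 and 12.03 there (1.48), at 9.93 and 10.02 in muscle and at 11.47 and 11.88 under the adipose label. Cd74 stood at 11.75 and 12.94 (1.20), 10.32 and 10.79, and 8.36 and 13.52 in that order, and Irf8 at 9.02 and 10.04 (1.01), 8.72 and 8.74, and 7.94 and 10.16. On the same pair Psmb8, Psmb9 and Psmb10 lay between -0.25 and 0.04.

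The promoters of Psmb8 (chr17:34197945-34198244, plus strand) and Psme1 (chr14:55578244-55578543, plus strand) are shown because they hold letters of interferon elements. The gamma-activated site TTCNNNGAA occurred in 2 of 34 member promoters, Psmb8 and Psmd2 (5.9%, against 9.6% of all genes). The interferon regulatory core, GAAA repeated after a gap of 2 bases, occurred in Psme1, Psmd4 and Psmd9 (8.8%, against 4.0%). In Psme1 it is on the opposite strand. Capitals mark the matches.
Psmb8: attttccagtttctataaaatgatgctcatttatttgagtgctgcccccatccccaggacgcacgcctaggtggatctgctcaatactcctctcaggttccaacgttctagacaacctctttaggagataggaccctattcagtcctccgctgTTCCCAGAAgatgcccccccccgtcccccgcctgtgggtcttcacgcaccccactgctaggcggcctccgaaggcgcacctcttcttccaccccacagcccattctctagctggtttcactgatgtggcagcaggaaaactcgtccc
Psme1: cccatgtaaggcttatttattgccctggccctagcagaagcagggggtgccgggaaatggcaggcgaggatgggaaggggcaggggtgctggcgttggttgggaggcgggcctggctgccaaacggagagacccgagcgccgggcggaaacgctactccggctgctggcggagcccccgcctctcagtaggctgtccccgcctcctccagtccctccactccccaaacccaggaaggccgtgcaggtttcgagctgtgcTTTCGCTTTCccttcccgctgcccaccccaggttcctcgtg
Psmd2, Psmd4 and Psmd9, which also hold 1 of these motifs, differed between the labels by 0.70, 0.09 and 0.28 and did not pass.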

How the data were processed

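Per the labels' protocols, 5 ug of total RNA was amplified and Cy5-labelled for each array. The authors deposited normalized intensity values of 29922 probes on a linear scale; the submitters' processing notes name limma, and background correction, normalization and build are not given in the sources used here. Sorted log2 values of the 6 arrays differ by at most 0.008 from their median, so the arrays share 1 distribution and differences in total signal are removed. Intensities under the 5th percentile (214.2) were raised to it before log2. Genes were named by the platform annotation, which can be old. A gene counted as measured when its brightest probe reached the probe median on at least 1 array compared.

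Differences between MCSE and PBS have 1 array each and no test; 2-fold is the threshold. Muscle was compared with the liver label by limma 3.58.1 (R 4.3.3; lmFit, eBayes) on 4 arrays, with 2 residual and 4.4 prior degrees of freedom; it was tested on simulated data. P-values measure the spread between these samples, which may be technical. Values on all arrays are given for members past 2-fold or past the test, the catalytic pairs, the activators, and the highest and lowest of each class by mean, and in the related lists for genes past 2-fold with MCSE (at most 4) and Nfe2l1, Pomp, Fbxo32, Tap1 and B2m. Trim63 was not analysed here. Members and lists were chosen with earlier results of these data known; motifs other than the antioxidant response core were chosen after the values were seen. Alternatives were other scalings, filters, thresholds, probe rules and fits. Python 3.11.15, numpy 2.4.6, pandas 2.3.3 and matplotlib 3.10.9 were used.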

Additional observations from a re-analysis of the deposited data

Results flagged for a closer look

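The muscle and liver-labelled pairs lay on opposite sides of 0 for 4 values, each from 1 array per treatment, and the difference between the pairs was not tested. For Psma3 the differences were 0.05 (muscle) and -1.66 (liver label), and for Psma4 -1.42 and 0.10. The median of the 38 measured proteasome genes was 0.05 in muscle and -0.18 on the liver pair. The median of the 12 core genes was 0.23 and -0.01.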

How the results depend on the processing

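With 1 array per treatment, no alternative gives a replicate check of MCSE against PBS. Over the alternatives the proteasome median ranged from 0.01 to 0.10 in muscle and from -0.26 to -0.13 on the liver pair, the core median from 0.11 to 0.28 and from -0.23 to 0.07, and the base and lid median from -0.12 to -0.06 and from -0.37 to -0.31. At 1.5-fold, 2 of 38 genes were lower in muscle and 8 on the liver pair, against 7.91% and 18.5% of all measured genes, and 0 were higher in either, against 9.49% and 20.1%. Psma3 on the liver pair ranged from -1.66 to -1.08, Psma4 in muscle from -1.42 to -1.37. For muscle against liver label, all 6 arrays in the fit gave 0 members higher and 0 lower, with 47 and 0 of all genes; the spread between the adipose arrays enters that fit. A lone adipose array adds no residual degree of freedom, so the fit without the PBS adipose array equals that of 4 arrays and is no check. Treatment as a term, which pairs the arrays by treatment, gave 3 members higher and 7 lower, and 2219 genes higher and 2564 lower. Leaving out each of the 4 arrays in turn gave 0 to 4 members higher and 1 to 8 lower, and 324 to 1540 higher and 385 to 2194 lower of all genes. Each fit without 1 of these arrays has a single array in a label, and its spread comes from the other label alone. The counts from those fits are therefore listed only and are no check of the calls. Psme4 did not pass with eBayes with trend (limma adjusted p = 0.056) or with the mean over probes (0.0947). Psmd10 did not pass with no filter on dim probes (0.0603). Psmb10 passed with the mean over probes (0.0113) and with no filter on dim probes (0.0428), and Psmd5 passed with that mean (0.0443). The labels carry no replicate numbers. The number of arrays limits the precision.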
